A study of Rattus norvegicus with 8 samples.

Results

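Immediate early and MYC transcription factor genes were followed across the adipose-derived mesenchymal stem cells (ASCs) of 2 rat strains. The set was the list Egr1, Egr2, Nr4a1, Fos, Fosl1, Jun, Junb, Atf3, Myc and Mycn, 10 genes in all, each taken through the probe whose platform gene symbol carried that name. A probe was found for 9 of the 10 genes, 1 probe each, out of 22523 probes on the array, of which 13793 had a gene symbol. No probe named Fosl1 was in the annotation used here. Of the 9 genes, 8 passed the detection filter and were tested among 9552 probes, and the remaining one, Nr4a1, was not tested because it was undetected on every array.

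ASCs came from PVG (Piebald Virol Glaxo) and LEW (Lewis/Jms) rats of 8 weeks of age, and were cultured from fat tissue. The 8 Illumina RatRef-12 arrays held PVG ASCs with LPS, the bacterial endotoxin sensed through TLR4, at 1 µg/ml, PVG ASCs with PBS as the control, LEW ASCs with the same LPS dose, and LEW ASCs with PBS. Each of these 4 groups had 1 array at 48 h and 1 array at 24 h, with the RNA of 3 rats of 1 strain pooled for every array, so that the spread between rats could not be measured. The 48 h and 24 h arrays served as the 2 arrays of their group in the tests, which compared the strains and the treatments across all 4 groups. The p-values thus measure the spread between pooled cultures at different times. No array was taken in the first hours after LPS was added.

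Immediate early genes are switched on within minutes of a stimulus such as serum, a growth factor or LPS, without new protein synthesis, and their transcripts are usually short-lived. EGR1 and EGR2 are zinc finger factors that bind GC-rich sites, NR4A1 is an orphan nuclear receptor, and FOS, FOSL1, JUN, JUNB and ATF3 are leucine zipper proteins that pair with each other in AP-1 dimers or related ones. MYC and MYCN pair with MAX on E-boxes and are known for driving growth and ribosome production. Many immediate early genes are under the serum response factor SRF, which binds CArG boxes and is activated through ERK-phosphorylated ELK1 or through the actin-sensing coactivator MRTFA.

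The stretches before the start sites of Egr1, Egr2 and Junb are shown because Egr1 and Egr2 were both lower with LPS and Junb was not. They are the 250 bases before the annotated start from RefSeq (build GRCr8), at chr18:26736828-26737077 on the plus strand for Egr1, chr20:21054442-21054691 on the minus strand for Egr2 and chr19:40080876-40081125 on the plus strand for Junb, written 5′ to 3′ along the gene with CArG boxes in capitals.
Egr1: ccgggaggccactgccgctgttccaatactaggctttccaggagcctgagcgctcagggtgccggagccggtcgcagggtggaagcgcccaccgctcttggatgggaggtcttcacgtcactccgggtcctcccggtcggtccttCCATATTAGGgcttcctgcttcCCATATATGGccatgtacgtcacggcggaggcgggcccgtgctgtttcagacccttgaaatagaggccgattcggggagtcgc
Egr2: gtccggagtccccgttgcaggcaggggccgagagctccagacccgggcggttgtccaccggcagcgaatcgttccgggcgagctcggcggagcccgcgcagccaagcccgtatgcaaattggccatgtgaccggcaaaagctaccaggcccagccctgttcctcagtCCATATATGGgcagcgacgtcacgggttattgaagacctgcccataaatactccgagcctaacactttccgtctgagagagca
Junb: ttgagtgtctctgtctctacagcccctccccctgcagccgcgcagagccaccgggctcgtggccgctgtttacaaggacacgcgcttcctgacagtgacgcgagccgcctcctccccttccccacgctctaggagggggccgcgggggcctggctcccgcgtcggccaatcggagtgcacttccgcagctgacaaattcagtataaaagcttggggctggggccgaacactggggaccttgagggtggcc

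Egr1 held 2 CArG boxes, at positions -105 to -96 and -83 to -74 from the start, and Egr2 held 1 box at -83 to -74. The Egr2 box and the nearer Egr1 box had the same letters, CCATATATGG, at the same distance from the start. No CArG box was matched in the same window of Junb, Nr4a1 or Fosl1. A CArG box was present in 1.5% of the 33469 rat promoter windows of that length (501 windows). A window was found for 5 of the 10 genes, and not for Fos, Jun, Atf3, Myc or Mycn. Of the 5, Nr4a1 and Fosl1 had no LPS test. The part of CArG boxes in the LPS differences was not tested.

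Matches were searched on both strands and are descriptions of letters, not binding sites. The CRE half-site TGACG was present in all 5 windows, against 18.2% of all windows, and in Egr1 and Egr2 a copy lay at the same place, -66 to -62. The EGR site, GCGNGGGCG with T or G as N, was matched once, in Nr4a1 at -73 to -65, where it overlapped 1 of the 3 copies of the Sp1 GC box GGGCGG in that window. The EGR site was present in 2.85% of all windows and the GC box in 30.5%. Junb had a TATA box, TATAAA, at -49 to -44, which 12.9% of all windows held. A kappa-B site was matched in Nr4a1 alone of the 5 (6.33% of all windows). The full CRE TGACGTCA, which contains the half-site, the AP-1 site TGACTCA and the E-box CACGTG had no match in the 5 windows and were present in 1.59%, 4.05% and 5.59% of all windows.

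**Figure D1:**
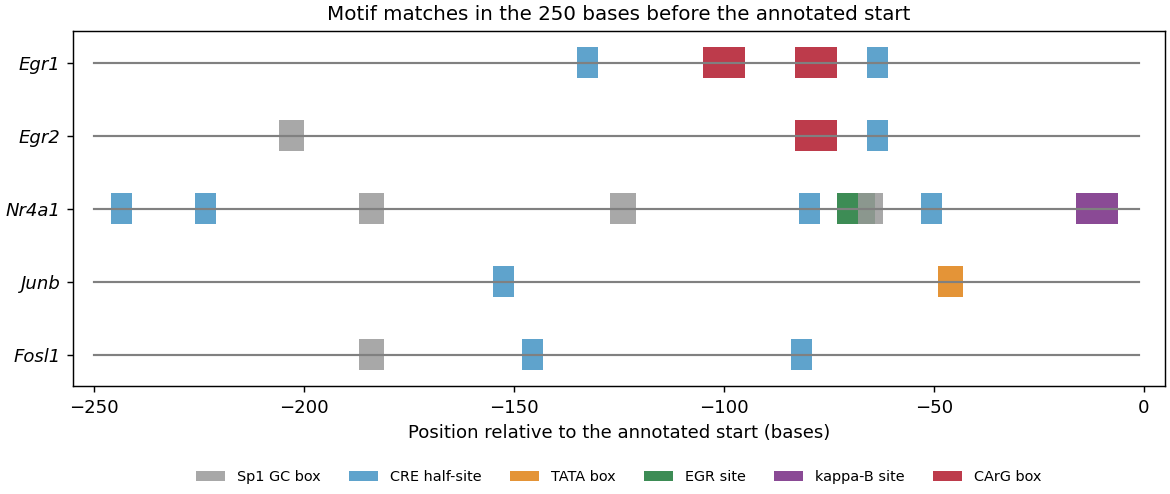
Motif matches on either strand in the 250 bases before the annotated start of the 5 genes with a RefSeq window, drawn by position relative to the start in bases. Egr1 has 2 CArG boxes and Egr2 has 1, with CArG boxes of both genes at -83 to -74, and the other 3 windows have none.

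The arrays were similar in overall signal. Between 8947 and 9509 probes (39.7% to 42.2%) had a detection p under 0.05 on a single array, and the lowest scaled signal of a detected probe was at most 87.3. The arrays were scaled to the same 75th percentile, so that 1 unit is the same on each array, and are given per probe: levels of different genes cannot be set against each other. All 8 MSC and fibroblast markers with a probe, of 10 listed, were detected on every array, among them Thy1 and Col1a1, whereas 5 of the 6 macrophage and leukocyte markers with a probe, such as Ptprc and Adgre1, were undetected on all 8, and Itgam was detected on 3.

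Egr1, Egr2, Junb and Myc were detected on all 8 arrays. Jun was detected on 7 arrays, Mycn on 5, and Fos and Atf3 on 4 each. Nr4a1 was undetected on all 8 arrays, with scaled signals of 68.8 to 83.03 and detection p-values of 0.0606 to 0.171, as were 10975 of the 22523 probes (48.7%). The signals of Fos, Jun, Atf3 and Mycn lay near the background of the arrays.

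**Figure D2:**
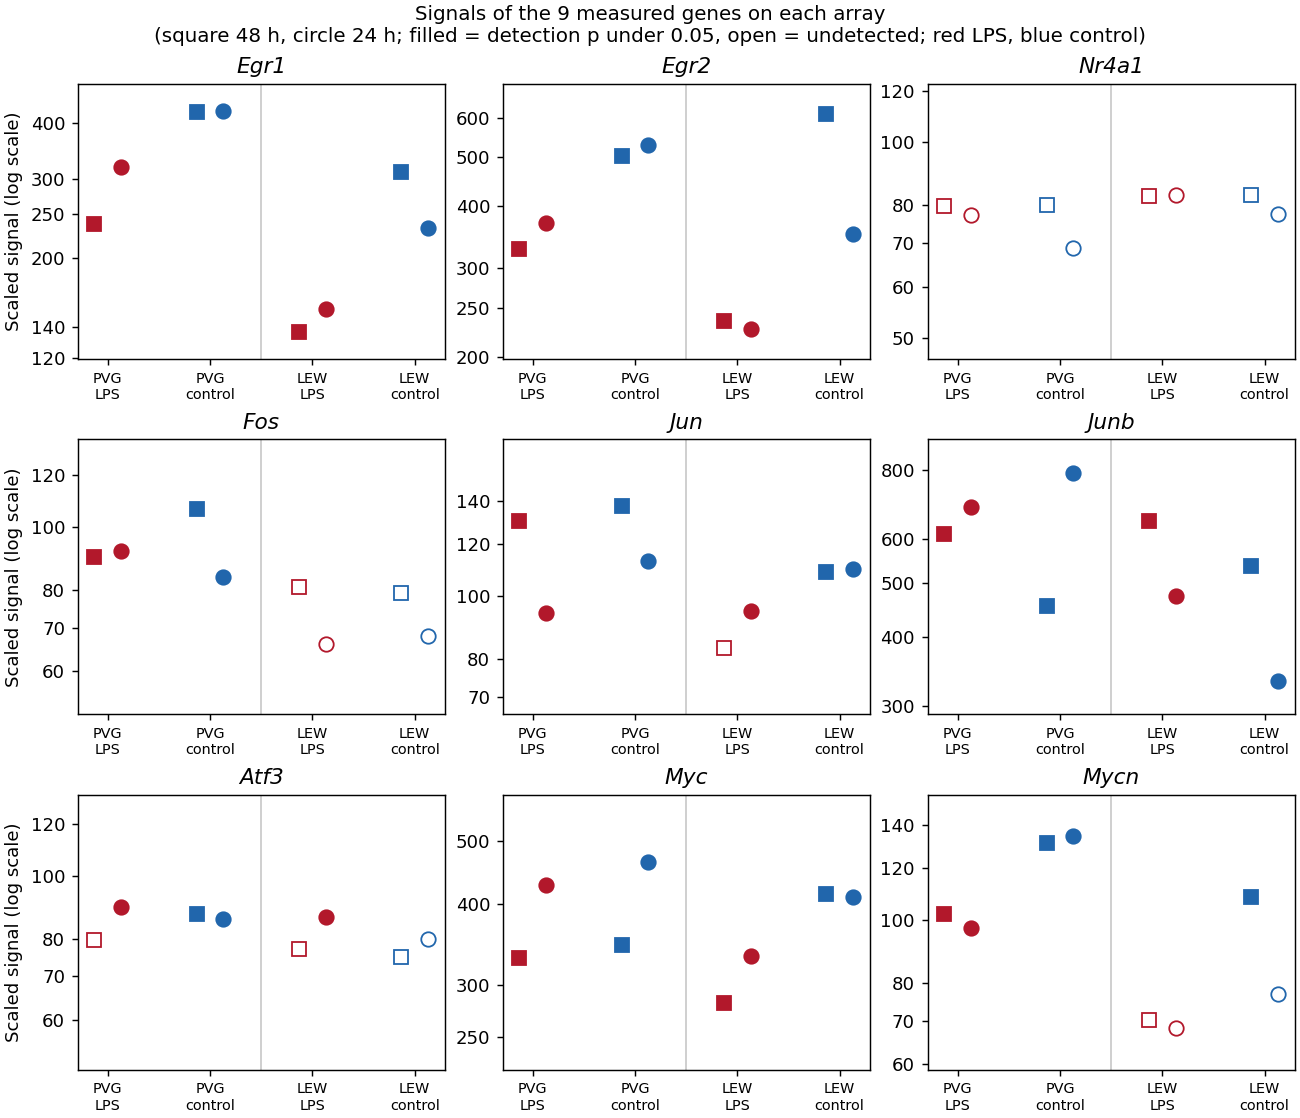
Scaled signal (log scale) of the 9 measured genes on each of the 8 arrays, by strain and treatment, with 48 h as squares and 24 h as circles, and undetected values as open symbols. Egr1 and Egr2 are lower with LPS than with PBS within each strain, and Fos is filled for all 4 PVG arrays and open for all 4 LEW arrays.

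Between the strains, Egr1 was 1.73-fold higher in PVG ASCs over both treatments. Mycn also passed the test, at or near background in LEW, and the other 6 tested genes had positive differences that did not pass. Mycn, Fos and Atf3 were kept by the detection filter only through PVG groups, where they were detected, so a positive difference was favoured for these 3 genes by the filter, and 5 of the 8 were kept through a LEW group as well. By limma, with p-values adjusted by Benjamini-Hochberg over the 9552 probes, 2 of the 8 tested genes passed, against 14.9% of all tested probes (712 higher and 713 lower in PVG). The median difference over the 8 genes was 0.35 on the log2 scale, against -0.01 over all tested probes. Against that share, and given the filter, neither the count nor the median is read as a result about the set.

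Egr1, which binds GC-rich promoters after growth and stress signals, had scaled signals of 238 and 319 in PVG ASCs with LPS at 48 h and 24 h, and of 422 and 424 with PBS. In LEW ASCs the signals were 137 and 154 with LPS at 48 h and 24 h, and 311 and 233 with PBS. Both PVG arrays of a treatment were above both LEW arrays of the same treatment, although PVG with LPS at 48 h was below LEW with PBS at 48 h. The mean log2 signal of Egr1 was 8.42 ± 0.40 in PVG and 7.63 ± 0.55 in LEW (SD, n = 4 arrays each). The difference, PVG minus LEW, was 0.79 (standard error 0.13, adjusted p = 0.00415 by limma), and 1.03 with neqc background correction. It passed under 17 of 18 alternative settings, in which the adjusted p was 0.000611 to 0.0828, and the exception was the 2-way analysis of variance without moderation.

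Mycn, the neural and embryonic relative of Myc, had signals of 102 and 97.0 in PVG ASCs with LPS at 48 h and 24 h, and of 131 and 134 with PBS. In LEW ASCs it had 70.2 and 68.2 with LPS at 48 h and 24 h, both undetected, and 109 (detected) and 77.0 (undetected) with PBS. Mycn was thus detected on all 4 PVG arrays and on 1 of the 4 LEW arrays, which also exceeded both PVG arrays with LPS. The mean log2 signal was 6.85 ± 0.24 in PVG and 6.31 ± 0.31 in LEW (SD, n = 4 arrays each), a difference of 0.53 (standard error 0.11, adjusted p = 0.0148 by limma). Since 3 of the 4 LEW values of Mycn were undetected, the difference is partly set by the background, and PVG over LEW was 1.29-fold when each of these was put at the lowest detected signal of its array. The test applied to Mycn because the PVG arrays passed the filter, which no LEW group did. The call was lost without the PVG control array at 48 h (adjusted p = 0.0517) or at 24 h (0.0657) and without the PVG array with LPS at 48 h (0.0534), within a range of 0.0035 to 0.116 over 17 alternatives, the highest being the analysis of variance.

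Fos, the partner of Jun in AP-1, was detected on all 4 PVG arrays and on no LEW array, a split found for 68 of the 22523 probes (0.302%). Of these probes, 10975 were detected on no array at all. Fos was kept by the detection filter only through PVG groups, so the split is not read as support for a strain difference. With LPS at 48 h, the detection p of Fos was 0.0303 in PVG and 0.0836 in LEW. Its signals were 90.0 and 91.9 in PVG ASCs with LPS at 48 h and 24 h and 106 and 83.9 with PBS, against 80.7 and 66.0 in LEW ASCs with LPS and 79.2 and 68.0 with PBS. The strains did not overlap, which was so for 1 of the 8 tested genes and for 18.7% of all tested probes. The ratio of PVG to LEW was at least 1.11, with the LEW level taken on each array as the higher of its own signal and the lowest detected signal. The fitted difference was 0.34 (standard error 0.11, adjusted p = 0.0811 by limma), and did not pass. With the time point as a block Fos passed (adjusted p = 0.0195), as it did with neqc (0.0187) and with an intensity trend (0.0401), within a range of 0.0187 to 0.220 over 17 alternatives. The block had 3 of the 8 genes past the threshold, against 23.4% of all tested probes, of which Fos and Mycn entered the test only through PVG.

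The other tested genes had no strain difference that passed. Egr2, known for its part in nerve myelination and T-cell anergy, had a mean log2 signal of 8.73 ± 0.34 in PVG and 8.35 ± 0.66 in LEW (SD, n = 4 arrays each), a difference of 0.37 (standard error 0.16, adjusted p = 0.160 by limma). Without the LEW control array at 48 h, the highest Egr2 signal of all, the difference was 0.57 and passed (adjusted p = 0.0114, within a range of 0.0114 to 0.370 over 18 alternatives). Junb, an AP-1 subunit, differed by 0.37 (standard error 0.21, adjusted p = 0.308) and Jun by 0.25 (standard error 0.12, adjusted p = 0.227). Myc differed by 0.13 (standard error 0.13, adjusted p = 0.604) and Atf3, a stress-induced repressor of the ATF family, by 0.10 (standard error 0.09, adjusted p = 0.507). Junb had the widest range of the AP-1 genes. Its signals were 612 and 686 in PVG with LPS at 48 h and 24 h and 455 and 789 with PBS, against 645 and 474 in LEW with LPS and 535 and 333 with PBS, so that PVG was above LEW on both pairs at 24 h and below it on both pairs at 48 h.

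Among LPS-treated ASCs alone, 1 of the 8 genes passed between the strains, against 6.05% of all tested probes. It was Egr1, with a difference of 0.93 (standard error 0.18, adjusted p = 0.0219 by limma), and of 1.28 with neqc background correction. Control arrays enter this comparison only through the estimate of spread shared by the 4 groups, so leaving one out does not change the difference. This call was lost without the PVG control array at 48 h or at 24 h (adjusted p = 0.0656 for each), without the PVG array with LPS at 24 h (0.156) and without the LEW array with LPS at 48 h (0.0943), within a range of 0.00539 to 0.202 over 18 alternatives, the highest being the analysis of variance. Egr2 differed by 0.59 (standard error 0.22, adjusted p = 0.190) and passed without either LEW control array (0.0420). Mycn, which was undetected on both LEW arrays with LPS, was at least 1.18-fold higher in PVG, with an adjusted p of 0.106 by limma. It passed with the time point as a block (adjusted p = 0.0380), where 2 of 8 genes passed against 12.4% of all tested probes. Mycn entered the test only through PVG groups, so a positive difference was favoured by the filter.

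Among control ASCs, none of the 8 genes passed by limma, against 6.94% of all tested probes, and 2 had an unadjusted p under 0.05. These were Egr1, with a difference of 0.65 (standard error 0.18, adjusted p = 0.0749), and Mycn, with 0.54 (standard error 0.16, adjusted p = 0.0930). Both passed with the time point as a block (adjusted p = 0.0346 for Egr1 and 0.0332 for Mycn), against 12.7% of all tested probes. Mycn entered the test only through PVG groups, and its LEW control array at 24 h was undetected. A positive difference of Mycn was thus favoured by the filter, and its passes are not read as support. Egr1 also passed without the detection filter (adjusted p = 0.0446), and Mycn with an intensity trend (0.0478) and without the LEW control array at 48 h (0.0322). The 2-way analysis of variance without moderation passed none.

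Of the genes that act beside these factors, the share that differed between the strains was near that of all tested probes (14.9%) or above it in some lists and below it in others. Srf, which encodes the factor that binds CArG boxes, was 2.09-fold higher in PVG ASCs (log2 difference 1.06, standard error 0.10, adjusted p = 0.000266 by limma), and Mrtfa, the gene of its coactivator, was 1.39-fold higher (0.48, adjusted p = 0.0107). In the list of upstream ERK, JNK, p38 and SRF genes, 2 of 19 tested were higher and 1 lower (15.8%), with a median of 0.04. The lower one was the JNK gene Mapk8 (-0.31, adjusted p = 0.0452 by limma), detected on 3 of the 8 arrays, so its difference rests partly on undetected values. Of 13 other AP-1 and ATF genes tested, 1 was higher (7.69%), Mafk, a small Maf protein gene (1.21, adjusted p = 0.000406), with a median of -0.05.

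A further list held other EGR and NR4A genes, their co-repressors, Wt1 and Krüppel-like factor genes. Of its 8 tested genes, 1 was higher and 2 were lower in PVG (37.5%), with a median of 0.12. None of those that passed was an EGR or NR4A gene. Wt1, a zinc finger factor that binds EGR-like sites, was 2.83-fold higher (adjusted p = 1.93e-05 by limma). Of the 3 mesothelium markers tested, Wt1 among them, 1 was higher and none lower, with a median of -0.10. Nab1, a co-repressor of EGR1 and EGR2, was lower (log2 difference -1.08, adjusted p = 0.000145), as was Klf4 (-0.85, adjusted p = 0.000719). Wt1 was detected on 5 of the 8 arrays and Nab1 on 4, so their differences rest partly on undetected values. Of 31 other immediate early response genes, 4 were higher and 3 lower (22.6%, against 14.9% of all tested probes), with a median of 0.09. Higher ones included Zfp36, whose product promotes decay of AU-rich transcripts (0.84, adjusted p = 0.000408), and Hbegf, an EGF receptor ligand gene (0.66, adjusted p = 0.00448), and lower ones included Gadd45a, a stress gene (-1.33, adjusted p = 0.000558), and Zfp36l1 (-1.16, adjusted p = 0.00673).

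Some cell type markers differed between the strains as well. Of the 8 MSC and fibroblast markers, 3 passed by limma (37.5%, against 14.9% of all tested probes). Itgb1 (0.82) and Nt5e (0.57) were higher in PVG, and Pdgfra (-1.21) was lower. The summed signal of the contractile markers, all 4 of those with a probe higher in PVG (6 listed), was 16889 to 24610 on PVG arrays and 1951 to 4793 on LEW arrays. The summed signal of the Schwann and neural markers (3 of 5 with a probe) was 213 to 231 on PVG arrays and 911 to 1354 on LEW arrays. It came mostly from S100b, the only 1 of the 3 that was tested. Sox10 was undetected throughout, and Mbp, detected on 2 arrays, had geometric mean signals of 78.6 in PVG and 75.6 in LEW. In bulk RNA, fewer cells of a type and less RNA per cell cannot be told apart, and the part of these markers in the strain differences of Egr1 and Mycn was not tested.

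With LPS, Egr1 and Egr2 were lower than in control ASCs. Egr1 was 1.69-fold lower and Egr2 1.72-fold lower over both strains, 2 of the 8 tested genes, against 2.26% of all tested probes by limma (139 higher and 77 lower). The median difference, LPS minus control, was -0.25 over the 8 genes and -0.01 over all tested probes. None of the 8 genes had LPS and control arrays without overlap over both strains, against 5.32% of all tested probes.

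**Figure D3:**
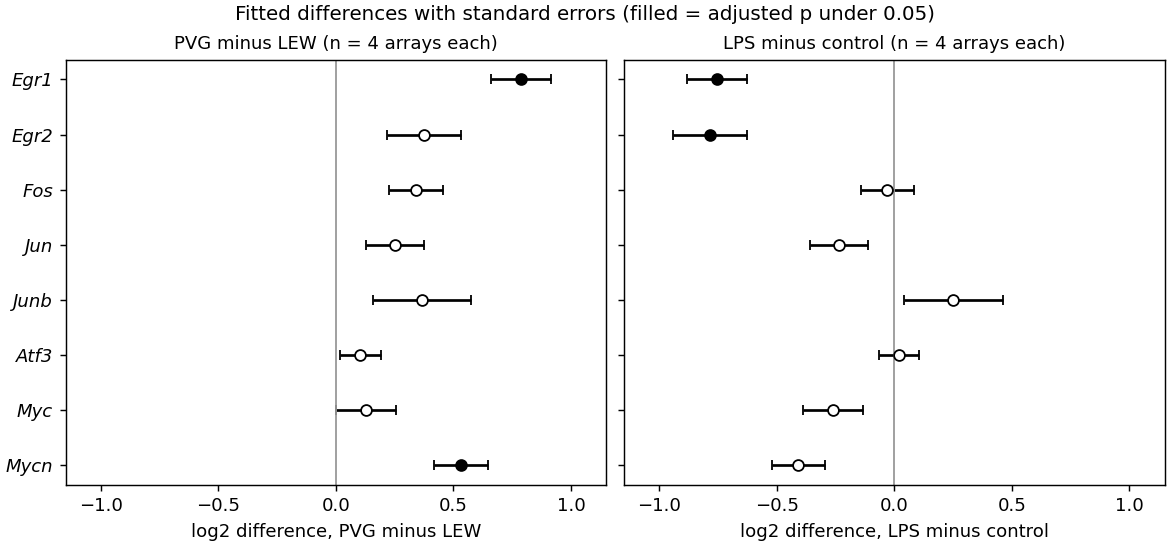
Fitted log2 differences of the 8 tested genes, PVG minus LEW on the left and LPS minus control on the right, with standard errors (4 arrays on each side of a difference) and filled points for an adjusted p under 0.05. Egr1 and Mycn are filled for strain and Egr1 and Egr2 for LPS, where both lie below 0, and Nr4a1 is not drawn because it was not tested.

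The mean log2 signal of Egr1 was 7.64 ± 0.57 with LPS and 8.40 ± 0.41 in control ASCs (SD, n = 4 arrays each). In PVG, both LPS arrays (238 and 319 at 48 h and 24 h) were below both control arrays (422 and 424), and in LEW both LPS arrays (137 and 154) were below both control arrays (311 and 233). The difference was -0.76 (standard error 0.13, adjusted p = 0.0222 by limma), and -0.96 with neqc background correction. It did not pass without the PVG control array at 48 h (adjusted p = 0.112) or at 24 h (0.133), without the LEW control array at 48 h (0.0704) or without the PVG array with LPS at 48 h (0.0808), nor in the analysis of variance (0.293). The adjusted p was 0.00359 to 0.293 over 18 alternatives, of which 13 kept the call.

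For Egr2, the signals were 328 and 369 in PVG ASCs with LPS at 48 h and 24 h, against 503 and 530 with PBS. In LEW ASCs they were 236 and 228 with LPS at 48 h and 24 h, against 609 and 352 with PBS. Every LPS array was below both control arrays of its own strain, and the only overlap across strains was that of PVG with LPS at 24 h and LEW control at 24 h. The mean log2 signal was 8.15 ± 0.35 with LPS and 8.93 ± 0.34 in control ASCs (SD, n = 4 arrays each), a difference of -0.78 (standard error 0.16, adjusted p = 0.0418 by limma). This call was kept under 10 of 18 alternatives, in which the adjusted p was 0.00487 to 0.356. It was lost with quantile normalization (0.0761), in the authors' second table (0.0770), without the PVG control array at 48 h (0.152) or at 24 h (0.222), without the PVG array with LPS at 48 h (0.155) or at 24 h (0.0903), without the LEW array with LPS at 48 h (0.0551) and in the 2-way analysis of variance without moderation (0.356).

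The MYC genes had negative differences with LPS that did not pass. Mycn differed by -0.41 (standard error 0.11, adjusted p = 0.134 by limma), and each LPS array was below the control array of its strain and time. In LEW, Mycn was undetected on both LPS arrays and on the control array at 24 h, so its direction there rests on background values. With the time point as a block Mycn passed (adjusted p = 0.0398), where 3 of 8 genes passed against 6.12% of all tested probes, and it also passed without the LEW control array at 24 h (0.0446). Myc had signals of 330 and 427 in PVG with LPS at 48 h and 24 h, against 346 and 464 with PBS, and of 282 and 333 in LEW with LPS, against 414 and 410 with PBS. Its difference was -0.26 (standard error 0.13, adjusted p = 0.462 by limma), with LPS below PBS on all 4 pairs of arrays.

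Of the AP-1 genes none passed with LPS. Jun differed by -0.24 (standard error 0.12, adjusted p = 0.498 by limma), with signals of 83.3 to 130 on the LPS arrays and 109 to 137 on the control arrays. Junb differed by 0.25 (standard error 0.21, adjusted p = 0.713), higher with LPS on 3 of the 4 pairs and lower in PVG at 24 h. Fos differed by -0.03 (standard error 0.11, adjusted p = 0.950) and Atf3 by 0.02 (standard error 0.09, adjusted p = 0.956), and both were detected on 2 LPS arrays and 2 control arrays.

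Within each strain the tests had 2 arrays a side. In PVG, none of the 8 genes passed by limma, against 0.314% of all tested probes, and 3 had an unadjusted p under 0.05. Egr1 differed by -0.62 (adjusted p = 0.361) and Egr2 by -0.57 (adjusted p = 0.607), each with the standard error of the common fit, 0.18 and 0.22. In LEW, none passed either, against 0.649% of all tested probes, and 4 had an unadjusted p under 0.05. Egr1 differed by -0.89 (adjusted p = 0.0816) and Egr2 by -0.999 (adjusted p = 0.109). Both passed in LEW with the time point as a block (adjusted p = 0.0220 for Egr1 and 0.0253 for Egr2), against 3.52% of all tested probes, and without the detection filter (0.0231 and 0.0336). Egr1 also passed without the LEW array with LPS at 24 h (0.0482) and Egr2 without the LEW control array at 24 h (0.0164). The 2-way analysis of variance without moderation passed none of the genes in either strain.

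The LPS response of PVG minus that of LEW was 0.27 for Egr1 (standard error 0.26) and 0.43 for Egr2 (standard error 0.31), each with an adjusted p of 0.999 by limma. None of the 8 genes passed for this interaction, against 0.0314% of all tested probes, and none had an unadjusted p under 0.05. No gene of the 8 passed for it under any alternative run, the analysis of variance included. A missed threshold with 2 arrays in each group does not show that the strains responded alike.

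Single pairs of arrays were set against each other at a threshold of 1.5-fold, with no replicate check. LPS over control in LEW at 48 h put Egr1 (2.27-fold), Egr2 (2.58-fold) and Mycn past the threshold, all lower, 3 of 8 genes against 7.85% of all tested probes. Mycn was undetected on that LPS array, so that its fall is at least 1.30-fold, which is under the threshold. In LEW at 24 h, Egr1 (1.52-fold) and Egr2 (1.55-fold) were past it, both lower, 2 genes against 3.51%. In PVG at 48 h Egr1 (1.77-fold) and Egr2 (1.53-fold) were past it, both lower, against 3.49%, and in PVG at 24 h no gene was, against 4.16%.

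**Figure D4:**
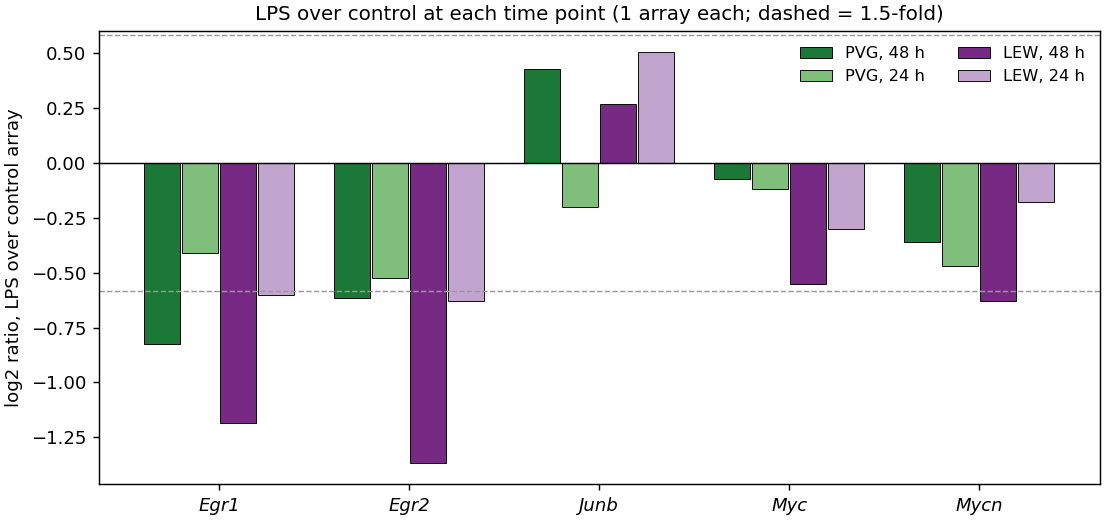
Log2 ratio of the LPS array over the control array of the same strain and time for Egr1, Egr2, Junb, Myc and Mycn, 1 array on each side, with dashed lines at 1.5-fold. All bars of Egr1, Egr2, Myc and Mycn point down, the longest is Egr2 in LEW at 48 h (-1.37), and Junb points up in 3 of 4 pairs. The LEW bars of Mycn rest on undetected LPS arrays, and at 24 h on an undetected control array as well.

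For PVG over LEW, the LPS-treated arrays at 48 h had Egr1 (1.74-fold) and Jun (at least 1.56-fold, LEW being undetected) past the threshold, both higher, 2 of 8 genes against 13.3% of all tested probes. At 24 h they had Egr1 (2.08-fold) and Egr2 (1.62-fold), both higher, against 7.52%. The control arrays at 48 h had none, against 10.4%. At 24 h they had Egr1 (1.82-fold), Egr2 (1.51-fold), Junb (2.37-fold) and Mycn (at least 1.65-fold, LEW being undetected), all higher, 4 genes against 10.6%.

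With LPS, 2.26% of all tested probes passed. Of the 8 tested genes in the list of EGR and NR4A genes, co-repressors, Wt1 and Krüppel-like factor genes, 2 were lower (25%), with a median of -0.23. These were the Krüppel-like factor genes Klf2 (-0.64, adjusted p = 0.0173 by limma) and Klf6 (-0.44, adjusted p = 0.0395). No EGR or NR4A gene of that list passed. Of 31 other immediate early response genes, 1 was lower, the MAP kinase phosphatase gene Dusp1 (log2 difference -0.63, adjusted p = 0.0201), and 1 was higher, the prostaglandin synthase gene Ptgs2 (2.84-fold, adjusted p = 0.00338). These are 6.45% of the list, whose median was 0.04. None of 13 other AP-1 and ATF genes and none of 19 upstream ERK, JNK, p38 and SRF genes passed, with medians of -0.07 and 0.01.

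Genes known as AP-1 targets were higher with LPS in 5 of 14 cases and lower in none, against 1.46% of all tested probes higher and 0.806% lower, with a median of 0.48. They included the chemokine gene Ccl2 (2.37, adjusted p = 6.23e-06 by limma), the matrix metalloproteinase genes Mmp3 (2.69, adjusted p = 0.000131) and Mmp9 (0.71, adjusted p = 0.0109) and the cytokine gene Il6 (0.84, adjusted p = 0.0336). The list was chosen with earlier results of these data known, and the paper also reports Ccl2 and Il6 as higher with LPS. The share is therefore not read as AP-1 activity, which was not tested. The LPS response of PVG minus that of LEW passed for Ccl2 (1.86, adjusted p = 0.0153) and, in the other direction, for Mmp3 (-3.57, adjusted p = 0.0153). Ccl2 was higher with LPS by 3.30 in PVG and by 1.44 in LEW. Mmp3 was higher with LPS by 4.47 in LEW, and its difference in PVG did not pass. Mmp3 and Il6 were each detected on only 5 arrays, so their differences, the Mmp3 interaction included, rest partly on undetected values. Between the strains 2 of the 14 were higher and 4 lower in PVG (42.9%, against 14.9% of all tested probes), with a median of -0.40, Ccl2 (-1.17, adjusted p = 8.42e-05) and Mmp3 (-2.19, adjusted p = 8.42e-05) among the lower ones.

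None of 29 MYC target genes passed with LPS, with a median of -0.08, and of 12 partners and regulators 1 was higher (8.33%), Ndrg1, a stress gene that MYC represses (0.60, adjusted p = 0.0133 by limma). Between the strains, 1 target was higher in PVG, the RNA polymerase I subunit gene Polr1b (0.84, adjusted p = 0.0011), and 2 were lower, the translation factor gene Eif4e (-0.47, adjusted p = 0.00799) and the lactate transporter gene Slc16a1 (-0.47, adjusted p = 0.0179), 10.3% of the list against 14.9% of all tested probes, with a median of 0.16. Of the partners and regulators, Ndrg2 (-0.72, adjusted p = 0.00697) and Mycbp2 (-0.70, adjusted p = 0.0344) were lower in PVG (16.7%), with a median of -0.11 over the 12.

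Between 48 h and 24 h, none of the 8 genes passed by limma, against 3.93% of all tested probes (127 higher and 248 lower at 48 h), and none passed with additive strain and LPS terms. At an unadjusted p under 0.05 there were 2, Myc, with a difference of -0.25, 48 h minus 24 h (standard error 0.09, adjusted p = 0.184), and Fos, with 0.21 (standard error 0.09, adjusted p = 0.263). Myc was lower at 48 h in 3 of the 4 groups, LEW control being the exception. Egr1 differed by -0.04 (standard error 0.12) and Egr2 by 0.15 (standard error 0.14).

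Genes of cell division, by contrast, fell with time: 12 of 13 tested proliferation genes were lower at 48 h and none was higher (92.3%, against 3.93% of all tested probes), with a median of -1.31, among them Rrm2 (-2.01, adjusted p = 2.95e-05 by limma), Ccna2 (-1.41, adjusted p = 0.000138), Cdk1 (-1.60, adjusted p = 0.000192) and Mcm6 (-1.39, adjusted p = 0.000238). None of the 13 passed between the strains or with LPS, but their median differences were 0.45, PVG minus LEW, and -0.30, LPS minus control. Of the 29 MYC target genes 4 were lower at 48 h, with a median of -0.19, namely Mrto4 (-0.45, adjusted p = 0.0252) and Fbl (-0.36, adjusted p = 0.0394) of ribosome assembly, the polyamine synthesis gene Odc1 (-0.40, adjusted p = 0.0309) and the lactate dehydrogenase gene Ldha (-0.43, adjusted p = 0.0317). Mxd3, the gene of a MAX partner (-0.70, adjusted p = 0.0022), and the kinase gene Aurka (-0.53, adjusted p = 0.00805) were also lower, and Mycbp2 was higher (0.47, adjusted p = 0.0136). Of the other immediate early response genes Id1 was lower (-0.55, adjusted p = 0.00618), and 4 AP-1 targets were lower, Fst (-0.72, adjusted p = 0.00221), Nqo1 (-0.64, adjusted p = 0.0102), Ccnd1 (-0.73, adjusted p = 0.0105) and Spp1 (-0.77, adjusted p = 0.0251).

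Across the 8 arrays the log2 signals of Egr1 and Egr2 followed each other, with a Pearson r of 0.903 and a Spearman rho of 0.810. The arrays share the strain and LPS differences described above, so the correlation is a description of the same 8 values. Myc had an r of 0.718 with Egr1 and 0.698 with Egr2, and Junb had an r of 0.180 with Egr1, 0.101 with Egr2 and 0.0991 with Myc. Among 5653 genes detected on all 8 arrays, those with the highest Pearson r with Egr1 were Camk2g (0.969), Lrrfip1 (0.964) and Pgap1 (0.961). For Egr2 they were Zcchc8 (0.961), Ptp4a3 (0.954) and Ric8a (0.951), for Junb Stk16 (0.936), Gusb (0.934) and Poll (0.928), and for Myc Pop7 (0.973), Acot9 (0.973) and Bcl7c (0.964).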

How the data were processed

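The authors deposited signal intensities, 1 bead summary per probe on a linear scale, neither corrected for background nor normalized. A deposited detection p-value accompanies each, computed per array from its negative control beads. A second table deposited by the authors holds between-array normalized intensities and was an alternative here. The number of arrays limits the precision.

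Signals were scaled to equal 75th percentiles, floored at 16 (which changed none) and taken to log2. A probe was kept, as 9552 of 22523 were, if some group had a detection p under 0.05 on all its arrays. Genes were named through the platform annotation, in which 13793 probes had 1 symbol, none had several and 8730 had none. Of these, 13752 matched a RefSeq gene by Entrez ID. Each gene was taken by its brightest probe. Group means were fitted in limma 3.58.1 (R 4.3.3), and an adjusted p under 0.05 over the kept probes was a call. The time difference had a time term beside the group means. The 48 h minus 24 h differences of the groups correlated at 0.22 to 0.463 over the kept probes for all 6 pairs of groups, so the time point pairs the arrays. The main fit of strain and treatment had no time term, so the time difference is part of its spread. The fit with the time point as a block was the alternative, and the calls it changed are given above.

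The genes and lists were chosen with earlier results of these data known. The genes named are the 10 listed, up to 4 of each further list with the smallest p among those that passed, and the 3 genes most correlated with each gene detected on all 8 arrays. Marker genes were named after their values were seen. Alternatives were normexp (offset 50), neqc (offset 16), the second table, quantile normalization, other detection filters, a floor of 64, the block, an intensity trend, an additive fit and leaving out each array. A further alternative was an unmoderated 2-way analysis of variance of strain and treatment, with no time term. The paper also names a 2-way analysis of variance, which for its less stringent gene list took LPS condition and duration as variables, so the 2 need not give the same calls. Where an array was the last of its group, its spread was assumed equal to that of the other groups. The scripts were tested on simulated data. Tables and figures used Python 3.11.15 with matplotlib 3.10.9, numpy 2.4.6 and pandas 2.3.3.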

Additional observations from a re-analysis of the deposited data

How the results depend on the processing

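Of the 64 fitted differences of the 8 genes, 1112 values under the alternatives were computed: 1069 stayed on the same side of the threshold, 23 lost a call, 20 gained one and none reversed a called direction. Signs turned in 43 values, none of them called. The count of genes that passed for strain was 2, but 1 among probes detected on all 8 arrays (which leaves 4 of the genes), 0 in the 2-way analysis of variance, 3 with neqc and 3 with an intensity trend (Fos added), and 1 to 3 leaving out 1 array. For LPS it was 2, but 1 with quantile normalization, 1 in the authors' second table, 0 in the analysis of variance and 0 to 3 leaving out 1 array. For strain with LPS it was 1, but 0 in the analysis of variance and 0 to 2 leaving out 1 array. For strain in controls it was 0, but 1 without the detection filter, 1 with an intensity trend and 0 to 1 leaving out 1 array. For LPS in LEW it was 0, but 2 without the filter and 0 to 1 leaving out 1 array.

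The time point as a replicate block moved the counts to 3 for strain, 3 for LPS, 2 for strain with LPS, 2 for strain in controls and 2 for LPS in LEW, and changed no other call: LPS in PVG and the interaction stayed at 0. With the block, over all probes, the calls were 2232 for strain and 585 for LPS, against 1425 and 216 without it. For the 48 h minus 24 h difference no block was possible, and the count was 0 throughout. Single pairs past 1.5-fold numbered 15 (3 of them with an undetected array), 28 with neqc and 4 at 2-fold. The cause of these changes was not tested. Each gene has 1 probe, so the mean of all probes gave no other value. Fos, Jun, Atf3, Mycn and Nr4a1 are limited by their low signal over background.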
